A study of Mus musculus with 12 samples.

Results

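Serum amyloid and other acute phase genes were followed in hyperplastic mammary glands of mice. The group holds 10 genes, chosen by name: Saa1, Saa2, Saa3, Hp, Lrg1, Orm1, Orm2, Itih4, Ptx3 and Steap4. Each name was found once among the 54532 genes of the deposited expression table. The tissue came from female FVB/N mice of the MIC model, whose mammary epithelial cells make the polyoma virus middle T oncogene and Cre recombinase under doxycycline control, so that Cre acts in cells of the epithelium. All animals received doxycycline at 2 mg/ml in the drinking water, and the sample titles carry 2 wk. The controls, MIC WT, were compared with MIC Stat3 ko glands and with MIC Chi3l1 ko glands, 3 groups in all, at 4 libraries per genotype, written here as WT 1 to 4, Stat3 ko 1 to 4 and Chi3l1 ko 1 to 4. Alleles and ages are not in the labels. Nor do they say whether samples with the same genotype came from separate animals, and the p-values reflect the spread among those samples only.

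The acute phase response is the change in secreted defence and transport proteins that follows injury or infection. Cytokines of the IL-6 family activate the transcription factor STAT3, which acts with C/EBP factors and NF-kB on these genes, and IL-1 and TNF act on several of them as well. The liver is the main source in the body, but mammary epithelium, macrophages and adipocytes also transcribe some of the genes, and several of them rise in the mammary gland when milk removal stops.

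The libraries held 16217143 to 22607123 gene counts, and in 3 of them over 2% of counts came from mitochondrial genes: Stat3 ko 1, Stat3 ko 2 and Chi3l1 ko 2. Levels are given in FPKM as the authors deposited them, a unit that divides a gene's fragments by its length and by a library size. That size, solved from the deposited counts, was not the total of the gene counts. It was 17868731 against a total of 16217143 in WT 1, and 16670009 against 17998035 in Stat3 ko 1. Only in Stat3 ko 1 was it below the total, so FPKM place that library higher against the others than counts per total do. The targeted genes followed the labels. Stat3 averaged 48.0 ± 1.93 FPKM in WT (SD, n = 4) and 15.8 ± 3.04 in the Stat3 ko libraries, which kept 32.9% of the WT level. Chil1, the mouse gene for CHI3L1, averaged 151 ± 46.4 FPKM in the controls and 11.7 ± 5.33 with Stat3 ko, and 3 reads in all were counted in the 4 Chi3l1 ko libraries. Of 14 mammary epithelial markers all 14 were detected in every library, with summed levels of 3557 to 4183 FPKM in WT, 1091 to 2514 in Stat3 ko and 3070 to 4207 in Chi3l1 ko. In whole tissue, fewer cells of a type and less RNA per cell cannot be told apart.

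Saa1, Saa2 and Lrg1 were far lower in Stat3 ko glands, Ptx3 was lower in Stat3 ko than in Chi3l1 ko glands, and no gene of the group passed the test in Chi3l1 ko against WT. The test took genes that reached 1 FPKM in 4 or more libraries, which 9 of the 10 did and Itih4 did not. In Stat3 ko against WT, 3 of the 9 were lower and 0 higher by limma at an adjusted p under 0.05, against 8.39% lower and 5.61% higher among all 13643 genes tested. At an unadjusted p under 0.05, 2 were higher (Hp and Orm1). On recovered counts 1 was called higher by edgeR (Orm1) and 3 by DESeq2 (Hp, Orm1 and Itih4, which these tools did include). Among all genes, 4654 of 13643 had an unadjusted limma p under 0.05 in either direction. By edgeR 1644 of 16446 genes were called higher, and by DESeq2 2730 of 18999. In Chi3l1 ko against WT, 0 were lower and 0 higher by limma, against 0.00733% and 0% of all genes. At an unadjusted p under 0.05, 1 was higher (Ptx3), beside 222 of the 13643 genes in either direction. The tools edgeR and DESeq2 also called 0 in each direction, beside 1 and 6 genes lower and 0 higher among all. In Stat3 ko against Chi3l1 ko, 4 were lower and 0 higher, against 8% and 5.19% of all genes. At an unadjusted p under 0.05 1 was higher (Orm1), and 0 by edgeR and 1 by DESeq2. Among all genes, 4329 of 13643 had such a p in either direction. There edgeR called 1282 of 16446 genes higher and DESeq2 2463 of 19601. The comparisons share libraries and are not independent. The median log2 change of the 9 genes was 0.05, 0.31 and -0.68 in the 3 comparisons, beside -0.02, 0.00 and -0.01 for all genes tested. Errors of log2 changes are standard errors from limma, on the log2(FPKM + 1) scale, which shrinks the change of a gene near 0.

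**Figure D1:**
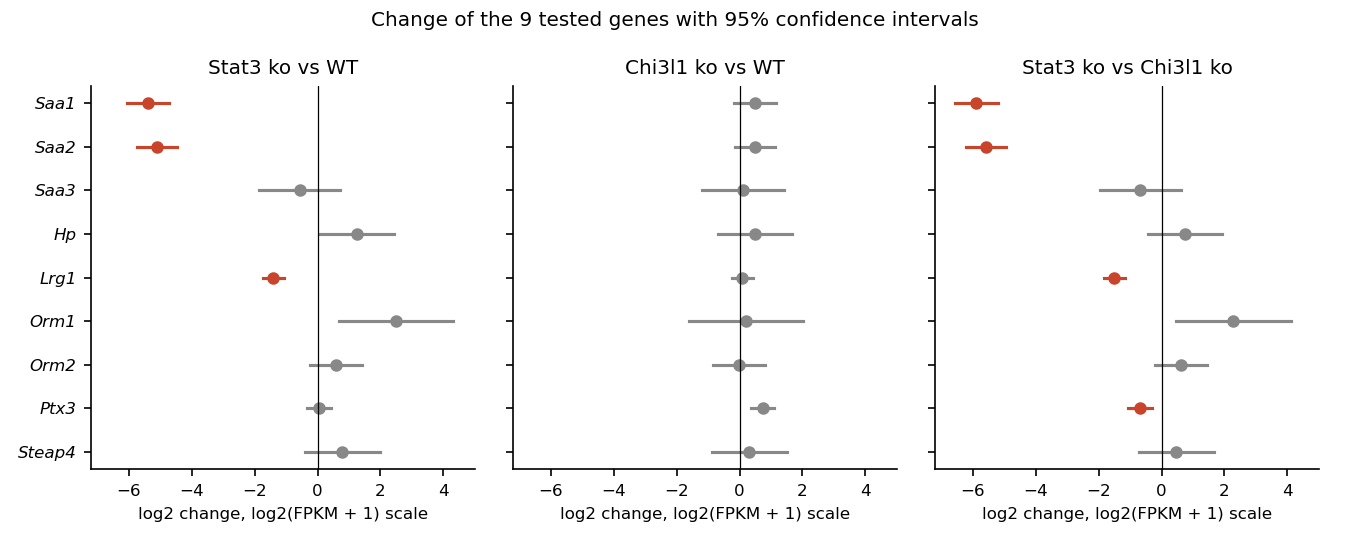
Log2 change (log2(FPKM + 1) scale, points) of the 9 tested acute phase genes with 95% confidence intervals (lines) in 3 comparisons, red where the adjusted p was under 0.05. Saa1, Saa2 and Lrg1 lie left of 0 in both comparisons with Stat3 ko, and Ptx3 in Stat3 ko vs Chi3l1 ko; no gene is red in Chi3l1 ko vs WT.

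In WT glands the order of the mean levels was Lrg1 (209 ± 29.7 FPKM, SD, n = 4), Hp (93.5 ± 31.9), Saa1 (51.3 ± 10.9), Saa2 (38.3 ± 9.75), Steap4 (22.1 ± 2.25), Saa3 (5.39 ± 3.21), Orm1 (4.74 ± 1.96), Orm2 (2.36 ± 0.031), Ptx3 (1.58 ± 0.433) and Itih4 (0.227 ± 0.138). The ranges of Hp and Saa1, of Saa1 and Saa2, and of Saa3 and Orm1 overlapped. Within every WT library, though, Hp was above Saa1 and Saa1 above Saa2, while Saa3 and Orm1 changed order between libraries. For Saa1 and Saa2 the deposited gene lengths, 2478 and 2518 bases, cover nearly the whole span of each gene with its introns. FPKM levels between genes depend on that choice. Hp and Lrg1 together took 54.3% to 66.2% of the counts of the 10 genes in the WT libraries.

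**Figure D2:**
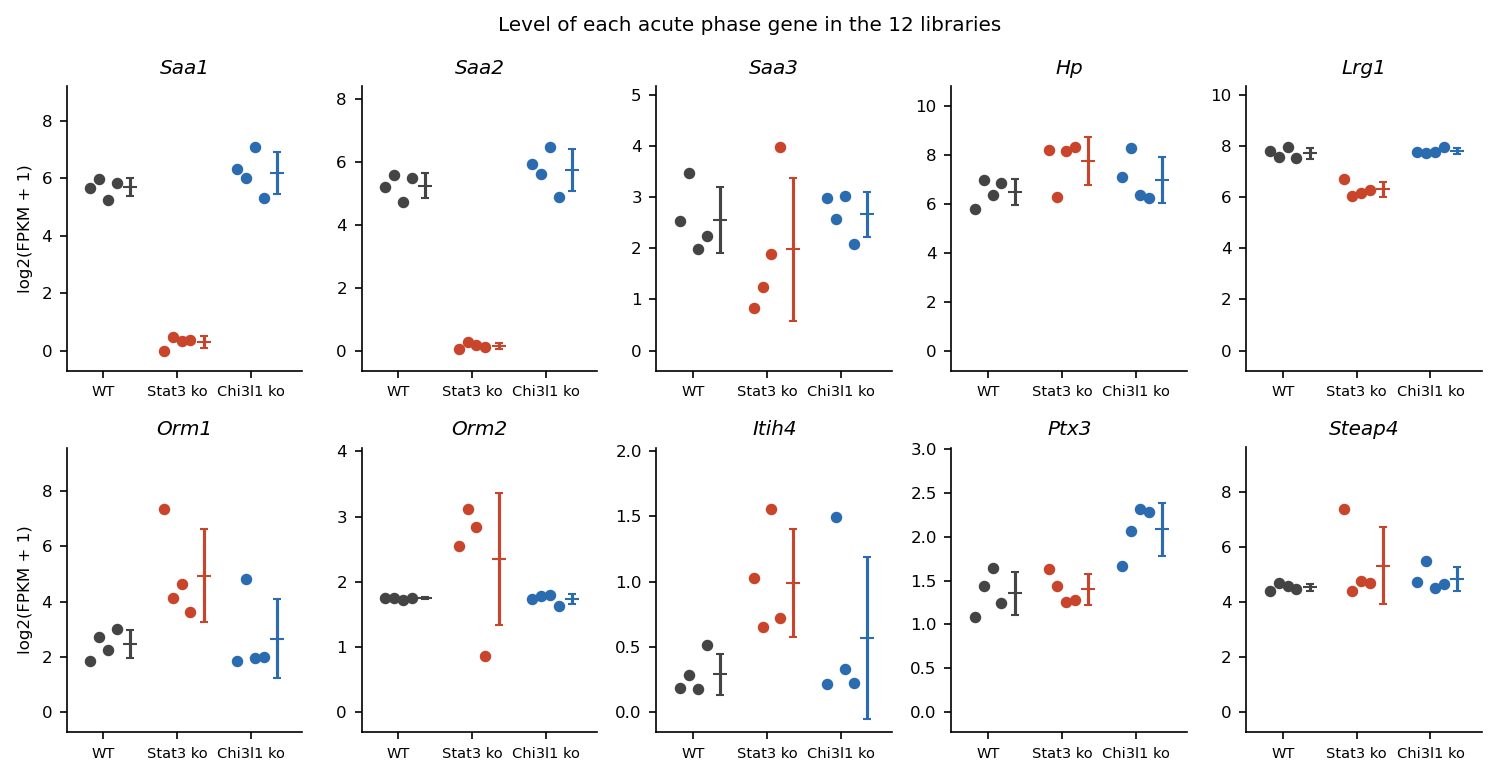
Level of each of the 10 genes as log2(FPKM + 1) in the 12 libraries (1 point per library, replicates 1 to 4 from left to right within a group), with the group mean and SD (bar) beside the points. Saa1 and Saa2 are near 0 in all 4 Stat3 ko libraries, while Orm1 and Steap4 have single high libraries in Stat3 ko and Chi3l1 ko.

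Saa1 and Saa2 encode serum amyloid A, small apolipoproteins carried on high-density lipoprotein during inflammation. They lie head to head on GRCm38 chromosome 7, Saa1 (ENSMUSG00000074115) at chr7:46740497-46742980 on the minus strand and Saa2 (ENSMUSG00000057465) at chr7:46751790-46754313 on the plus strand, 8.81 kb apart. Saa3 (ENSMUSG00000040026), the paralog known mainly outside the liver, lies at chr7:46711998-46715700 on the minus strand. The bases upstream of the 3 starts are shown because the 3 paralogs differed so much in their change. Sequences are from RefSeq on GRCm38.p6, run 5′ to 3′ along the gene's strand, and stop where the GENCODE gene begins. Capitals mark matches to the C/EBP motif TTGCNNAA on either strand.
Saa1 (chr7:46742981-46743230, minus strand): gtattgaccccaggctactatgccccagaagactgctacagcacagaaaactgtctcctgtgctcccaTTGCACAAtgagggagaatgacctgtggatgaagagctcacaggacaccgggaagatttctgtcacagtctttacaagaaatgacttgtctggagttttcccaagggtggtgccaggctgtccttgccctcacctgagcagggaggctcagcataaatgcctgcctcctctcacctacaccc
Saa2 (chr7:46751583-46751789, plus strand): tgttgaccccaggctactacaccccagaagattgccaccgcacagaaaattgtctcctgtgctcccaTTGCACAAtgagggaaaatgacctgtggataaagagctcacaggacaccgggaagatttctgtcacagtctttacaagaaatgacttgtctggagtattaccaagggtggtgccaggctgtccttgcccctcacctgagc
Saa3 (chr7:46715701-46715926, minus strand): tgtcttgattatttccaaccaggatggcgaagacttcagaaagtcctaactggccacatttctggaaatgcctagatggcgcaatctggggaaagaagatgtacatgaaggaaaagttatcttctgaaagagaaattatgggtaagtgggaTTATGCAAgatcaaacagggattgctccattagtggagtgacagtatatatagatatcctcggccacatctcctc
The 250-base windows before the RefSeq starts of Saa1 and Saa2 matched at 238 of 251 aligned positions (94.8%), and those of Saa1 and Saa3 at 133 of 276 (48.2%). The C/EBP match began 182 bases before the start of Saa1, 183 before that of Saa2 and 99 before that of Saa3. Such a match was found in 9.56% of 32851 promoter windows of the same length. None of the 3 windows held the STAT motif TTCNNNGAA, the NF-kB motif GGGNNNTTCC or the IL-6 response element CTGGGAA on either strand; these were found in 7.02%, 4.65% and 9.10% of all windows. A match or its absence describes letters in this window only.

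Saa1 was read at 49.9, 62.1, 36.8 and 56.5 FPKM in WT 1 to 4 and at 78.5, 63.4, 134 and 38.9 in Chi3l1 ko 1 to 4. In Stat3 ko 1 to 4 it was read at 0, 0.380, 0.269 and 0.278 FPKM, from 0, 17, 14 and 13 reads. Every Stat3 ko library lay below every other library, and the count of 0 in Stat3 ko 1 allows up to 0.167 CPM (counts scaled to the library total), the level of 3 counts in that library. Saa1 fell by 5.39 ± 0.31 on the log2(FPKM + 1) scale in Stat3 ko against WT (limma adjusted p = 5.6e-06, 4 of 4 libraries lower) and fell by 5.89 ± 0.31 against Chi3l1 ko (adjusted p = 2.87e-06). In summed reads per library total, WT held 224 times the Saa1 of Stat3 ko (95% Clopper-Pearson counting interval 167 to 309). Chi3l1 ko differed from WT by 0.50 ± 0.31 (limma adjusted p = 1), within the spread between libraries.

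Saa2 moved with its neighbour. Its levels were 36.01, 47.2, 25.5 and 44.3 FPKM in WT, 60.9, 48.7, 88.5 and 28.7 in Chi3l1 ko, and 0.0238, 0.198, 0.132 and 0.0841 in Stat3 ko, the last from 1, 9, 7 and 4 reads. Again no Stat3 ko library overlapped with another group. Saa2 fell by 5.11 ± 0.29 against WT (limma adjusted p = 5.6e-06) and fell by 5.59 ± 0.29 against Chi3l1 ko (adjusted p = 2.87e-06). The summed reads gave a WT to Stat3 ko ratio of 356 (95% counting interval 233 to 576). In the authors' deposited table of Stat3 ko against WT the log2 fold changes were -7.79 for Saa1 and -8.44 for Saa2, on a scale without the added 1.

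The split of reads between Saa1 and Saa2 is uncertain, since their coding sequences were identical at 351 of 369 bases (95.1%) and 14.7% of the 50-base stretches of the Saa1 coding sequence occur unchanged in Saa2. As counted, Saa1 took 55.6% to 59.9% of the reads of the pair in the 8 WT and Chi3l1 ko libraries. In Stat3 ko 2 to 4 the share was 65.4%, 66.7% and 76.5%, from 26, 21 and 17 reads, with counting intervals of 44.3% to 82.8%, 43.0% to 85.4% and 50.1% to 93.2%. Stat3 ko 1 held 1 read of the pair. Summed over both genes, which does not depend on the split, the pair held 174 to 288 CPM in WT, 183 to 601 in Chi3l1 ko and 0.0556 to 1.55 in Stat3 ko.

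Saa3 had no such fall. Its levels were 4.77, 10.1, 2.97 and 3.73 FPKM in WT, 0.783, 1.36, 2.71 and 14.8 in Stat3 ko, and 6.88, 4.98, 7.10 and 3.25 in Chi3l1 ko. Stat3 ko 1 to 3 lay below all WT libraries, and Stat3 ko 4 held the highest value of all 12. The change against WT was -0.57 ± 0.59 (limma adjusted p = 0.517, 95% confidence interval -1.87 to 0.73). Without Stat3 ko 4 it was -1.24 (adjusted p = 0.0383), and without the 3 libraries over 2% mitochondrial counts it was 0.38 (adjusted p = 0.771), so 1 library decides the call. Macrophage markers, of which all 10 were detected in every library, had summed levels of 622 to 1265 FPKM in WT and 739 to 1014 in Chi3l1 ko. In Stat3 ko 1 to 4 the sums were 1441, 1586, 1280 and 2074 FPKM, beside Saa3 at 0.783, 1.36, 2.71 and 14.8. Lyz2 and C1qa were the most abundant of these markers in WT. By limma 5 of the 10 rose in Stat3 ko against WT, against 5.61% of all genes tested. Their part in the Saa3 level was not tested.

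No other tested gene around the serum amyloid genes passed limma. Within 150 kb on each side, 7 further genes were tested in Stat3 ko against WT, with log2 changes between -0.36 and 0.22. Of these 0 passed, against 8.39% lower and 5.61% higher among all genes tested. With 7 genes, 0 cannot be told apart from those shares. At an unadjusted p under 0.05 there was 1 (Gtf2h1, -0.28 ± 0.11, adjusted p = 0.0991), beside 4654 of all 13643 genes. The tools edgeR and DESeq2 called 0 of the 7. Saal1, which neighbours Saa3, had a log2 change of -0.14 ± 0.11 (adjusted p = 0.386), and Hps5, next to Saa2, one of 0.04 ± 0.09 (adjusted p = 0.743). Saa4, between Saa3 and Saa1, held 0, 2 and 12 reads in all in WT, Stat3 ko and Chi3l1 ko and was not tested. Tph1, on the far side of Saal1 and named after its counts were seen, held 91, 400 and 63 and was not tested either.

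**Figure D3:**
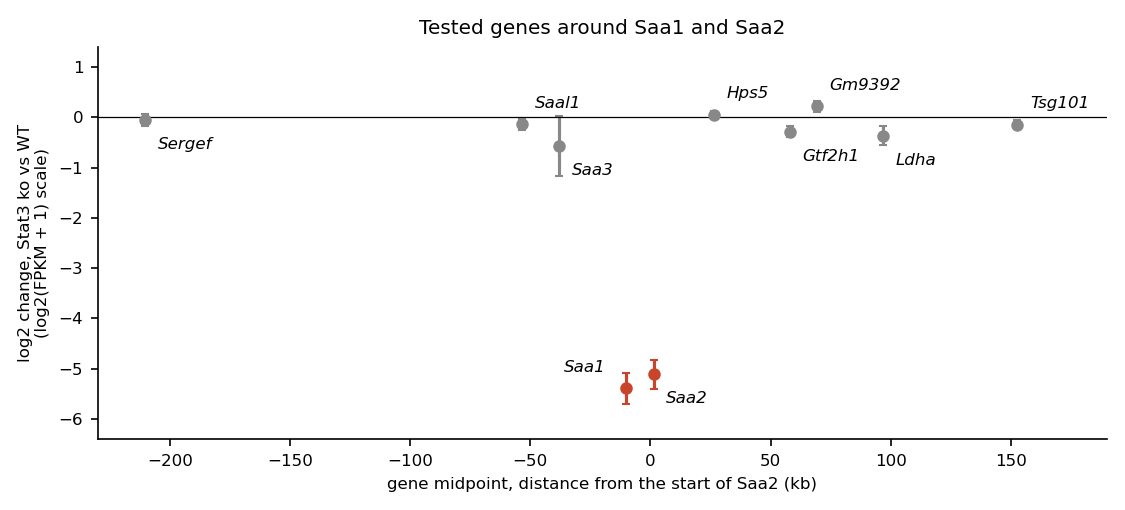
Log2 change in Stat3 ko vs WT (log2(FPKM + 1) scale, bars are standard errors) of the 10 tested genes around Saa1 and Saa2, against the distance of each gene's midpoint from the start of Saa2 in kb; red marks an adjusted p under 0.05. Saa1 and Saa2 lie near -5, and the 7 genes outside the serum amyloid family lie between -0.36 and 0.22.

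Lrg1 encodes leucine-rich alpha-2-glycoprotein, a secreted protein that binds the TGF-beta co-receptor endoglin. The gene (ENSMUSG00000037095) lies at GRCm38 chr17:56119678-56122001 on the minus strand. Its upstream bases are shown because it is the third gene of the group that fell with loss of Stat3; capitals mark the IL-6 response element CTGGGAA, found 102 bases before the RefSeq start.
Lrg1 (chr17:56122002-56122196, minus strand): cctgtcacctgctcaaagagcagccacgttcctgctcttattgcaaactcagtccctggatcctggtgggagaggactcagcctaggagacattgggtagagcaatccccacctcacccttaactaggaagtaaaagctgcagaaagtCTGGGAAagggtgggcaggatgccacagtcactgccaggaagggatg
The window also held the NF-kB motif GGGNNNTTCC, 34 bases before the RefSeq start and inside the gene as GENCODE draws it, and no STAT or C/EBP motif as spelled above.

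Lrg1 was read at 219, 186, 247 and 184 FPKM in WT, 215, 212, 215 and 246 in Chi3l1 ko, and 103, 65.1, 70.2 and 77.4 in Stat3 ko. The Stat3 ko libraries lay below all others without overlap, but unlike Saa1 and Saa2 they kept 37.7% of the WT mean. Lrg1 fell by 1.41 ± 0.15 in Stat3 ko against WT (limma adjusted p = 0.000262), and its log2 change against Chi3l1 ko was -1.499 ± 0.15 (adjusted p = 0.000187). Chi3l1 ko differed from WT by 0.09 ± 0.15 (limma adjusted p = 1, 95% confidence interval -0.23 to 0.42). Endoglin itself, Eng, rose by 0.89 ± 0.24 in Stat3 ko against WT (adjusted p = 0.0319). Of 6 endothelial markers, all were tested and 1 rose, with a median log2 change of 0.86 and summed levels of 22.3 to 33.9 FPKM in WT, 33.5 to 109 in Stat3 ko and 19.0 to 36.6 in Chi3l1 ko. Pecam1 rose by 1.13 ± 0.32 (limma adjusted p = 0.0393), and Cdh5 had a log2 change of 0.86 ± 0.29 (adjusted p = 0.0695). Their part in the Eng level was not tested.

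Mammary epithelial markers mostly moved in the same direction as Saa1, Saa2 and Lrg1. In Stat3 ko against WT 5 of 14 fell and 0 rose, with a median log2 change of -0.86. Foxa1 and Krt7, named after their values were seen, went the other way. Foxa1 had a log2 change of 1.94 ± 0.62 (limma adjusted p = 0.0567), from 177 reads in all in WT to 1948 in Stat3 ko. Krt7 had one of 0.11 ± 0.30 (adjusted p = 0.825). Lalba, a milk protein gene and the most abundant marker in WT, averaged 1189 ± 152 FPKM there and 98.7 ± 25.6 without Stat3 (SD, n = 4; log2 change -3.60 ± 0.20, limma adjusted p = 5.6e-06). Krt8, the luminal keratin gene that came second, averaged 722 ± 157 FPKM in controls and 568 ± 264 in Stat3 ko (log2 change -0.45 ± 0.31, limma adjusted p = 0.316). The part of epithelial content in the fall of the 3 genes was not tested. Neutrophil markers did not move one way. Of 13, 5 were tested, and S100a8 and Cd177 fell (S100a8 is named by its abundance, and the others after their values were seen), while S100a9 had a log2 change of 0.94 ± 0.70 (limma adjusted p = 0.358) and Csf3r one of 0.43 ± 0.20 (adjusted p = 0.153). Below the filter, Cxcr2 had 24 reads in all in WT and 280 in Stat3 ko, Ngp 5 and 38, and Elane 7 and 41. The 13 genes had summed levels of 857 to 1326 FPKM in WT, 246 to 934 in Stat3 ko and 927 to 1994 in Chi3l1 ko. Most of that sum was Ltf, which milk-secreting epithelium also makes, at 1127 ± 209 FPKM in WT (SD, n = 4), and S100a8 came second. The part of neutrophils in the levels of the 3 genes was not tested.

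Hp encodes haptoglobin, which binds free haemoglobin; the gene (ENSMUSG00000031722) lies at GRCm38 chr8:109575128-109579172 on the minus strand. It was read at 53.9, 125, 82.3 and 113 FPKM in WT, 296, 76.6, 282 and 319 in Stat3 ko, and 134, 311, 80.3 and 74.1 in Chi3l1 ko. Stat3 ko 1, 3 and 4 lay above every WT library, Stat3 ko 2 lay within the WT range, and Chi3l1 ko 2 lay far above the rest of its group. The change in Stat3 ko against WT, 1.25 ± 0.54, did not pass the test over all genes (limma adjusted p = 0.129, 95% confidence interval 0.06 to 2.43). Without Stat3 ko 2 it was 1.74 (adjusted p = 0.0462), and DESeq2 on recovered counts gave 1.38 (adjusted p = 0.0294). The authors' deposited table lists Hp at a log2 fold change of 1.37 with an adjusted p of 0.0193.

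Orm1 and Orm2 encode orosomucoid, an acid glycoprotein that binds drugs and lipids in plasma. They are neighbours on the plus strand of GRCm38 chromosome 4, Orm1 (ENSMUSG00000039196) at chr4:63344560-63348163 and Orm2 (ENSMUSG00000061540) at chr4:63362449-63365878. Their coding sequences were identical at 561 of 624 bases (89.9%), so reads may be divided between them with error. Orm1 was read at 2.60, 5.60, 3.74 and 7.01 FPKM in WT, 165, 16.7, 24.1 and 11.3 in Stat3 ko, and 2.65, 27.0, 2.91 and 3.04 in Chi3l1 ko. All Stat3 ko libraries lay above all WT libraries, while Chi3l1 ko 2 overlapped with Stat3 ko. The change against WT was 2.49 ± 0.83 (limma adjusted p = 0.0646), with 3.53 by edgeR (adjusted p = 0.0425) and 3.54 by DESeq2 (adjusted p = 0.00383). By limma it was 1.68 without Stat3 ko 1 (adjusted p = 0.112) and 2.94 without Stat3 ko 4 (adjusted p = 0.0341). The authors' deposited table lists Orm1 at 3.53 with an adjusted p of 0.000201.

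Orm2 was nearly flat in WT, at 2.38, 2.37, 2.31 and 2.36 FPKM, and at 2.34, 2.45, 2.46 and 2.10 in Chi3l1 ko. In Stat3 ko it was read at 4.88, 7.72, 6.15 and 0.820, so that 3 libraries lay above and Stat3 ko 4 below every other library. The change of 0.60 ± 0.38 against WT did not pass (limma adjusted p = 0.281). Without Stat3 ko 4 it was 1.09 (adjusted p = 0.000462), a p that leans on the narrow spread of WT and Chi3l1 ko. Without the 3 libraries over 2% mitochondrial counts it was 0.104 (adjusted p = 0.927). The ratio of Orm1 to Orm2 reads was 1.09 to 2.97 in WT, 2.17 to 33.8 in Stat3 ko and 1.13 to 11.02 in Chi3l1 ko, where Chi3l1 ko 2 held the highest.

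Itih4 encodes a heavy chain of the inter-alpha-trypsin inhibitor family (ENSMUSG00000021922, GRCm38 chr14:30886476-30902353, plus strand) and had the lowest mean level of the group in WT and Chi3l1 ko; in Stat3 ko, Saa1 and Saa2 were lower. It was read at 0.137, 0.218, 0.129 and 0.425 FPKM in WT, 1.04, 0.570, 1.95 and 0.646 in Stat3 ko, and 0.164, 1.81, 0.258 and 0.167 in Chi3l1 ko. The Stat3 ko libraries lay above all WT libraries, with 298 reads in all against 66, and Chi3l1 ko 2 lay among them. On recovered counts the log2 change against WT was 2.20 by edgeR (adjusted p = 0.0828) and 2.21 by DESeq2 (adjusted p = 0.0217). The authors' deposited table lists 2.20 with an adjusted p of 0.00149.

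Steap4 encodes a metalloreductase that reduces iron and copper at membranes and is known from adipose tissue (ENSMUSG00000012428, GRCm38 chr5:7960457-7982213, plus strand). It is shown as the gene of the group whose window held all 4 motifs, in capitals: NF-kB at 226, the IL-6 response element at 132, STAT at 116 and C/EBP at 87 bases before the RefSeq start.
Steap4 (chr5:7960222-7960456, plus strand): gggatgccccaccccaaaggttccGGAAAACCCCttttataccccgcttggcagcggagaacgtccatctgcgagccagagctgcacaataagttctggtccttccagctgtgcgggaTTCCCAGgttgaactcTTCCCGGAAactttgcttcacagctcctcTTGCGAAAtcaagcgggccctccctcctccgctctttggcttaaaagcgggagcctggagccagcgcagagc
Its levels were 19.9, 25.1, 22.6 and 21.0 FPKM in WT, 167, 20.3, 26.3 and 24.7 in Stat3 ko, and 25.1, 43.8, 21.8 and 24.3 in Chi3l1 ko. All libraries but Stat3 ko 1 and Chi3l1 ko 2 lay between 19.9 and 26.3. The change of 0.79 ± 0.54 in Stat3 ko against WT did not pass (limma adjusted p = 0.322) and was 0.095 without Stat3 ko 1 (adjusted p = 0.785). Against Chi3l1 ko it was 0.47 ± 0.54 (adjusted p = 0.578) and turned to -0.22 without Stat3 ko 1 (adjusted p = 0.517). The STAT motif was also found in the window of Itih4, 51 bases before the start, and in no other of the 8 windows examined; those of Hp and Orm1 were not used here.

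Adipocyte markers were high in some of the libraries where Hp, Orm1, Itih4 and Steap4 were high. All 10 markers were detected in every library, with summed levels of 119 to 508 FPKM in WT, 904 to 8673 in Stat3 ko and 209 to 1128 in Chi3l1 ko. The sum was 8673 FPKM in Stat3 ko 1, where Orm1 and Steap4 were highest, and 1128 in Chi3l1 ko 2, where Hp, Orm1, Itih4 and Steap4 were the highest of their group. Hp was highest in Stat3 ko 4, with a marker sum of 904 FPKM, and Itih4 in Stat3 ko 3, with 1152. In Stat3 ko against WT 5 of the 10 markers rose and 0 fell, with a median log2 change of 2.78. Cfd, the adipsin gene, rose from 184 ± 116 to 1372 ± 1489 FPKM on average (SD, n = 4; log2 change 2.60 ± 0.66, limma adjusted p = 0.0284), and the fatty acid carrier gene Fabp4 from 28.0 ± 12.5 to 524 ± 720 (3.31 ± 0.92, adjusted p = 0.0373). Saa1 was near 0 in the Stat3 ko libraries at every level of the markers, and at 63.4 FPKM in Chi3l1 ko 2. The part of adipocyte content in the levels of the 4 genes was not tested.

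**Figure D4:**
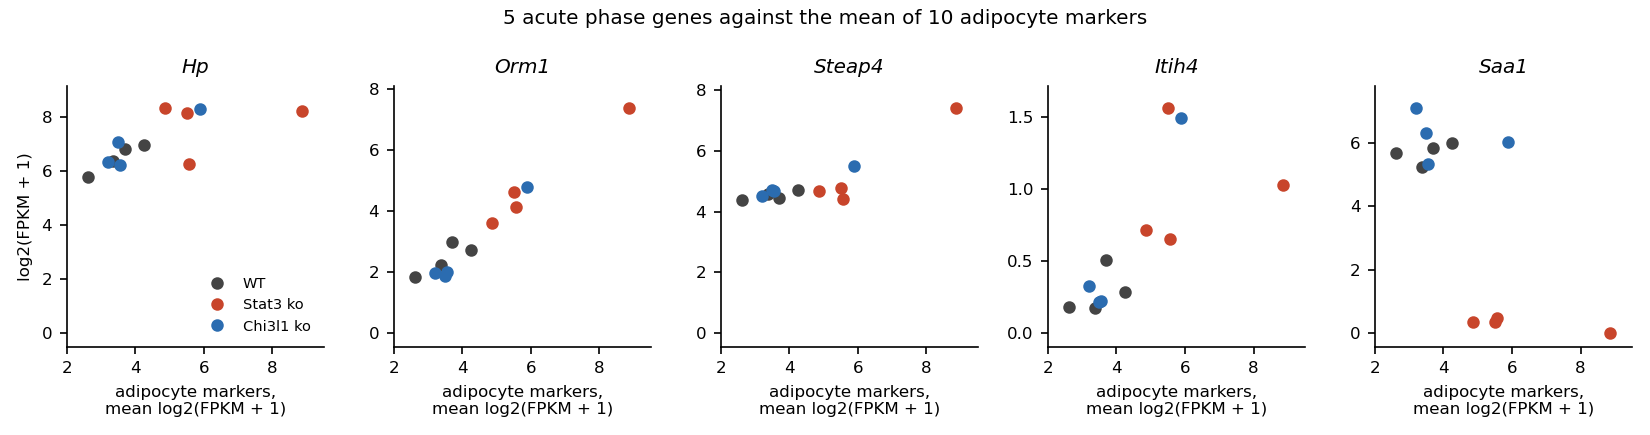
Level of Hp, Orm1, Steap4, Itih4 and Saa1 as log2(FPKM + 1) (vertical) against the mean log2(FPKM + 1) of 10 adipocyte markers (horizontal) in the 12 libraries, coloured by group. Stat3 ko 1 lies farthest right at 8.86 and holds the highest Orm1 and Steap4, Chi3l1 ko 2 lies at 5.88, and Saa1 is near 0 in the Stat3 ko libraries only.

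Liver transcripts were low. Of 9 hepatocyte markers 0 passed the filter, and their summed levels were 0.297 to 0.408 FPKM in WT, 0.323 to 11.9 in Stat3 ko and 0.138 to 0.525 in Chi3l1 ko. The highest sum was in Stat3 ko 1, with Alb at 9.94 FPKM, the library in which Orm1 was highest. Apoa1 had 0 reads in all 12 libraries and Ttr 1 read in all. The part of liver transcripts in the Orm1 level was not tested. Serpina1a and Tat, the most abundant in WT, averaged 0.102 ± 0.0599 and 0.0851 ± 0.0304 FPKM there (SD, n = 4).

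Markers of lymphocytes and fibroblasts were also higher in some Stat3 ko libraries. Of 3 tested B cell markers (of 5 listed) 1 rose in Stat3 ko against WT, with summed levels of 8.48 to 19.8 FPKM in WT, 30.8 to 603 in Stat3 ko and 9.58 to 29.7 in Chi3l1 ko; Ighm rose by 2.72 ± 0.60 (limma adjusted p = 0.0169), and Cd79b had a log2 change of 3.12 ± 1.05 (adjusted p = 0.0661). Of 7 T cell markers 2 rose, with sums of 10.9 to 24.8 FPKM in WT, 20.7 to 192 in Stat3 ko and 14.6 to 28.8 in Chi3l1 ko; Cd8a rose by 1.54 ± 0.44 (adjusted p = 0.042), and Trac had a log2 change of 1.91 ± 0.59 (adjusted p = 0.0526). Both sums were highest in Stat3 ko 2, the library with the lowest Hp of its group and the highest Orm2. Of 9 fibroblast markers 2 rose, with sums of 246 to 777 FPKM in WT, 302 to 1159 in Stat3 ko and 207 to 458 in Chi3l1 ko, while Col1a1 and Col3a1 had log2 changes of 0.21 ± 0.42 (adjusted p = 0.745) and 0.41 ± 0.47 (adjusted p = 0.553). The part of these cells in the levels of the 10 genes was not tested.

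Ptx3 encodes the long pentraxin 3, a pattern recognition protein made locally by stromal and myeloid cells (ENSMUSG00000027832, GRCm38 chr3:66219910-66225805, plus strand). It was read at 1.13, 1.72, 2.12 and 1.36 FPKM in WT, 2.10, 1.71, 1.39 and 1.42 in Stat3 ko, and 2.17, 3.19, 4.0 and 3.87 in Chi3l1 ko. All Chi3l1 ko libraries lay above all others, by a narrow margin for Chi3l1 ko 1. The change in Chi3l1 ko against WT was 0.73 ± 0.17 by limma, and it did not pass over all genes (adjusted p = 1, and 0.218 by DESeq2). The authors' deposited table lists Ptx3 at a log2 fold change of 1.07 with an adjusted p of 0.0383. The log2 change in Stat3 ko against Chi3l1 ko was -0.68 ± 0.17 (limma adjusted p = 0.0264), a call that 6 of 15 other settings did not keep, while Stat3 ko and WT differed by 0.05 ± 0.17 (adjusted p = 0.864, 95% confidence interval -0.33 to 0.42).

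Beyond the 10 genes, 33 further acute phase genes were listed, of which 14 were tested. In Stat3 ko against WT 5 of the 14 fell and 1 rose, with a median log2 change of -0.26. The counts of this list, the following lists and the cell type lists above stand against 8.39% lower and 5.61% higher among all genes tested. Lcn2, which encodes the siderophore-binding lipocalin 2, averaged 1339 ± 87.6 FPKM in controls and 170 ± 85.0 without Stat3 (SD, n = 4; log2 change -3.12 ± 0.31, limma adjusted p = 0.00019). The endotoxin receptor gene Cd14 fell by 1.98 ± 0.18 (adjusted p = 0.000143) and Lbp, which delivers endotoxin to it, fell by 2.02 ± 0.26 (adjusted p = 0.00116). The copper-carrying ferroxidase gene Cp fell by 1.83 ± 0.18 (adjusted p = 0.000175). Named after their values were seen, the metallothionein gene Mt1 fell by 0.70 ± 0.12 (adjusted p = 0.00591) and the complement inhibitor gene Serping1 rose by 1.18 ± 0.34 (adjusted p = 0.0396). Among 6 negative acute phase genes, which fall in the liver during the response, 2 were tested and Trf, the transferrin gene, fell by 2.55 ± 0.24 (adjusted p = 0.000159). The other tested gene of that list, Rbp4, named after its value was seen, had a log2 change of 3.49 ± 1.12 (adjusted p = 0.0593), from 313 reads in all in WT to 6701 in Stat3 ko. Its highest value was 209 FPKM in Stat3 ko 1. The sum of the 6 genes was 249 FPKM there and 28.1 to 68.6 in the other Stat3 ko libraries.

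The cytokines that drive the response were low in WT. Of 11 listed, 4 passed the filter, and of these 4 only Tnf passed limma in Stat3 ko against WT, rising from 1.67 ± 0.754 to 4.64 ± 2.28 FPKM (SD, n = 4; log2 change 1.02 ± 0.29, limma adjusted p = 0.0394). Ctf1, the most abundant in WT at 5.51 ± 0.524 FPKM, had a log2 change of -0.23 ± 0.14 (limma adjusted p = 0.257). Among the untested cytokine genes, named after their values were seen, Clcf1 had 185 reads in all in WT and 1192 in Stat3 ko, where its highest library reached 11.6 FPKM, and Osm had 69 and 208. All 12 receptor and kinase genes were tested, of which 2 fell and 4 rose. The oncostatin M receptor gene Osmr fell by 1.35 ± 0.15 (adjusted p = 0.000316) and the IL-1 co-receptor gene Il1rap fell by 0.87 ± 0.23 (adjusted p = 0.0336). The IL-6 receptor genes Il6ra and Il6st rose by 0.67 ± 0.14 (adjusted p = 0.0131) and 0.84 ± 0.18 (adjusted p = 0.0158). Il11ra1 and Il1r1, named after their values were seen, rose as well, and Tnfrsf1a, the most abundant in WT, had a log2 change of -0.29 ± 0.14 (limma adjusted p = 0.155).

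Of 14 tested transcription factors and feedback genes, 5 fell in Stat3 ko against WT and 0 rose. Besides Stat3 they were Fos, an AP-1 subunit (fell by 1.93 ± 0.15, limma adjusted p = 6.61e-05), Cebpd (fell by 1.097 ± 0.14, adjusted p = 0.00116), Cebpb (fell by 0.85 ± 0.14, adjusted p = 0.00555), and Bcl3, which was named after its value was seen. Of 15 tested receptors and partners of the acute phase proteins, 3 fell and 4 rose. Steap1, a relative of Steap4, fell by 0.79 ± 0.19 (adjusted p = 0.0252) and Tlr4, the endotoxin-sensing receptor gene, fell by 0.57 ± 0.15 (adjusted p = 0.033). Fgf2, whose protein Ptx3 binds, rose by 0.97 ± 0.26 (adjusted p = 0.0326), and Steap3 fell while Cd36 and Lrp1 rose, named after their values were seen. The complement gene C1qa, the most abundant in WT, had a log2 change of 0.42 ± 0.28 (limma adjusted p = 0.301). In Chi3l1 ko against WT, limma called 0 genes of these 6 lists.

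**Figure D5:**
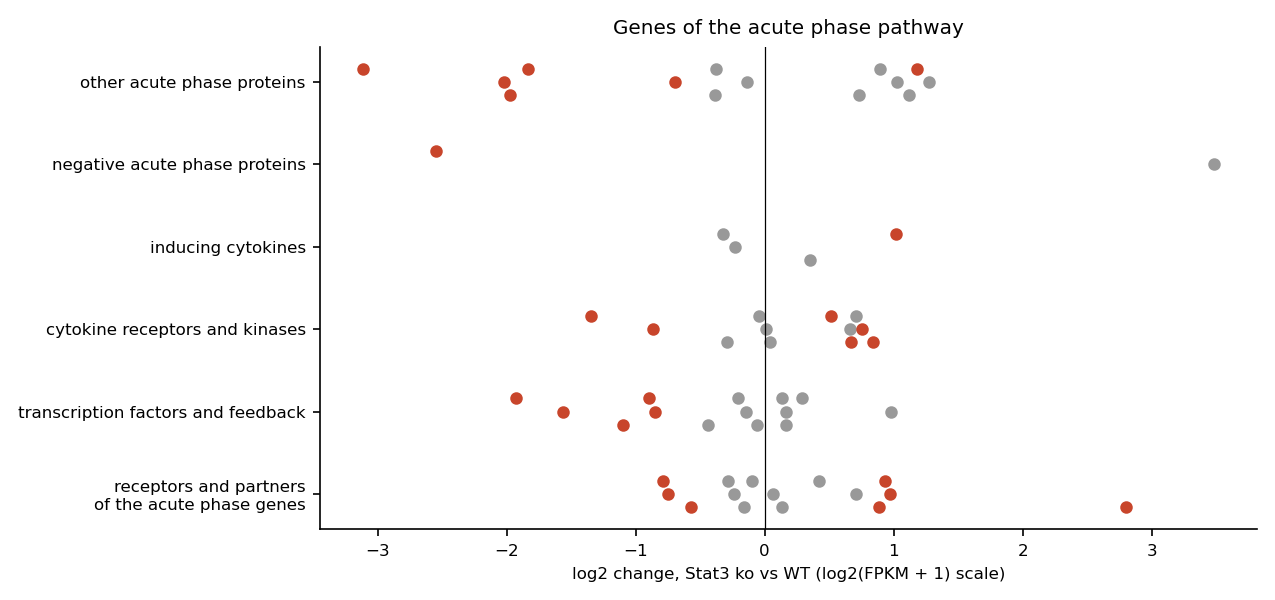
Log2 change in Stat3 ko vs WT (log2(FPKM + 1) scale) of every tested gene of 6 acute phase lists, 1 point per gene, red where the adjusted p was under 0.05. Lcn2 lies farthest left at -3.12, and the receptor lists hold called genes on both sides of 0.

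Genes whose level followed that of a member most closely over the 12 libraries are given as a description. For Saa1 they were Lalba (Pearson r = 0.98), Slc2a9 (0.98) and Cdhr1 (0.97), and for Lrg1 they were Cdhr1 (0.99), Itga8 (0.98) and Osmr (0.98); both members fall into 2 clusters of libraries, Stat3 ko and the rest. Saa3 was followed by H2-T-ps (0.94), B2m (0.94) and Tubb2a (0.91), and Hp by Cxcl14 (0.86), Wfdc21 (0.86) and Fjx1 (0.85). On deviations from the group means, the nearest genes were Gm6395, Rps23 and Dnajc17 for Saa1, Kcnq1, Nbeal1 and Extl2 for Lrg1, Lurap1l, H2-T-ps and Dad1 for Saa3, and Gm7984, Gm6988 and Calm3 for Hp. Within groups Saa1 and Saa2 stayed together (r = 0.98 of the deviations over 12 libraries), while Saa1 and Lrg1, which both fell with loss of Stat3, did not (r = -0.58). Libraries share their depth and tissue make-up in all these values.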

How the data were processed

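Total RNA of 12 libraries was sequenced. Tools listed in the submitters' processing notes are STAR, HTSeq, Trimmomatic, limma and edgeR, and the genome is listed as mm10 and as GRCm38, with no version given. The authors deposited FPKM for 54532 genes with the gene length in bases, and 2 comparison tables with raw counts, a normalized signal (counts divided by a size factor), log2 fold changes and p-values, per the file headers. FPKM times gene length and the library size gave whole counts (100% of values within 0.01). The library size was solved from the deposited counts. Of 55832 of those counts compared, 0 differed. Names of 27 genes, stored as dates, were restored by identifier.

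The test was limma 3.58.1 with an intensity trend on log2(FPKM + 1), two-sided, all 12 libraries in 1 fit, over the 13643 genes reaching 1 FPKM in 4 or more libraries, with Benjamini-Hochberg adjustment over all of them. Alternatives were no filter, a filter on a mean of 5 FPKM, median-of-ratios scaling, a pseudocount of 0.1, only the 2 groups compared, edgeR 4.0.16 and DESeq2 1.42.0 on recovered counts, each library left out, and the 3 libraries over 2% mitochondrial counts left out. For Stat3 ko against WT edgeR called 1311 genes lower and 1644 higher, and DESeq2 1712 and 2730. The fits were tested on simulated data with the same spread setting for every gene. These data had no libraries made to stand apart, so the simulation does not cover calls that depend on such libraries. Intervals and floors cover counting error only. Promoter windows came from RefSeq (GRCm38.p6; 8 of 10 genes matched), and coding sequences were the longest reading frames of GENCODE transcripts, aligned with Biopython 1.88.

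The 10 genes and all lists were chosen with earlier results of these data known. Named were the 10 genes, the targeted genes, from each pathway list the 4 called genes with the lowest adjusted p in each knockout against WT and the most abundant in WT, from cell type lists the 2 most abundant, and for Saa1, Saa3, Hp and Lrg1 the 3 genes with the highest correlation.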

Additional observations from a re-analysis of the deposited data

Results flagged for a closer look

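For 10 genes in 3 groups, 30 sets of 4 values were looked at. In 8 of them the gap of a library to its nearest neighbour exceeded Dixon's 95% critical share of the range. For normal values chance alone gives about 1 in 20. The values here were FPKM without a log, and the sets share libraries, so that rate need not hold and the 8 are a description. Of the 8, 3 were in Chi3l1 ko 2: Orm1 at 27.0 FPKM against 2.65 to 3.04 in the other libraries of its group, Itih4 at 1.81 against 0.164 to 0.258, and Steap4 at 43.8 against 21.8 to 25.1. In Stat3 ko 1, Orm1 stood at 165 FPKM against 11.3 to 24.1, and Steap4 at 167 against 20.3 to 26.3. Saa3 was high in Stat3 ko 4, at 14.8 FPKM against 0.783 to 2.71, and Hp was low in Stat3 ko 2, at 76.6 against 282 to 319. Lrg1 in Chi3l1 ko 4, at 246 FPKM against 212 to 215, stood apart by a small amount in a tight group.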

How the results depend on the processing

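Of 420 log2 changes of single genes recomputed under other settings, 387 kept their direction and their side of the threshold, and 87 of 96 counts of genes stayed within 1.5 times. An uncalled change that stayed uncalled was counted as kept whatever its size, as with Steap4 in Stat3 ko against WT, from 0.095 to 1.438. These totals also hold Chi3l1 ko against WT, where 0 genes were called under every setting. The fall of Saa1, Saa2 and Lrg1 in Stat3 ko was called under all 16 alternatives, against WT and against Chi3l1 ko; Lrg1 ranged from -1.54 to -1.32 against WT. Calls of higher genes were less steady. In Stat3 ko against WT they numbered 0 in the main test, 1 by edgeR, 3 by DESeq2, 2 without the libraries over 2% mitochondrial counts, and 0 to 2 with single libraries left out (1 without Stat3 ko 2, 2 without Stat3 ko 4). In Stat3 ko against Chi3l1 ko they numbered 1 by DESeq2, 2 without the libraries over 2% mitochondrial counts, and 0 to 2 with single libraries left out (2 without Stat3 ko 4, 1 without Chi3l1 ko 2). The cause was not tested.

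Changes that turned sign were not called either way. For Stat3 ko against WT these were Saa3 without the libraries over 2% mitochondrial counts (0.38), and Ptx3 without those libraries (-0.089), WT 1 (-0.041) or Stat3 ko 1 (-0.03; range with single libraries left out -0.041 to 0.143). For Chi3l1 ko against WT they were Saa3 without WT 3 (-0.08) or Chi3l1 ko 3 (-0.008; range -0.08 to 0.413), Orm1 without Chi3l1 ko 2 or the libraries over 2% (-0.505 for both; range -0.505 to 0.476), and Orm2 without Chi3l1 ko 4 (0.025; range -0.028 to 0.025). For Stat3 ko against Chi3l1 ko they were Saa3 without the libraries over 2% (0.243) and Steap4 without Stat3 ko 1 (-0.218; range -0.218 to 0.775). DESeq2 gave no p for Saa3 and Steap4. Depth limits the low genes: Itih4 rested on 9 to 30 reads per WT library and Orm2 on 33 to 41. No paired analysis was possible because the labels give no number that the groups share.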
